A study of Mus musculus with 8 samples.

Results

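Prostaglandins and leukotrienes are lipid signals made from arachidonic acid, and 10 genes of their synthesis, breakdown and sensing were followed in the inflamed colon of Trim58 knockout and wild type mice. The members were the cyclooxygenase genes Ptgs1 and Ptgs2, the synthase genes Ptges, Ptgis and Hpgds, the breakdown gene Hpgd, the receptor genes Ptger2 and Ptger4, the leukotriene gene Alox5ap and the fatty acid ligase gene Acsl4. They were found by symbol among probe sets annotated with exactly 1 gene, and the probe set with the highest mean over all 8 arrays stood for each gene. In this way 9 of the 10 members were measured, of 22180 genes in all. No probe set was named for Ptgs1 alone, so it was not analysed here. Ptges, Ptgis, Hpgds, Hpgd, Ptger2, Ptger4, Ptgs2 and Acsl4 had 1 such probe set each and Alox5ap had 2.

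RNA came from the middle colon of 4 Trim58-/- (knockout, KO) and 4 Trim58+/+ (wild type, WT) female mice of the strain labelled C57BL/6-Trim58tm2313Arte, aged 9 weeks. The knockout is described as lacking Trim58 completely, in the whole animal. Every mouse of both groups drank 4.0% dextran sodium sulfate (DSS), which injures the colon lining, for 7 days and then plain water for 5 days, and the colon was sampled on day 12. No untreated colon was analysed, so each comparison is between genotypes within colitis, and whole-tissue RNA cannot tell fewer cells of a type from less RNA per cell.

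Arachidonic acid is released from membranes by phospholipases, and Acsl4 can put it back by joining it to coenzyme A. Cyclooxygenases turn it into prostaglandin H, from which terminal synthases make prostaglandin E, prostacyclin or prostaglandin D. In the gut prostaglandin E acts through the receptors encoded by Ptger2 and Ptger4 on epithelium and immune cells and is known for its part in mucosal repair, and Hpgd inactivates it. Leukotrienes are made by the lipoxygenase Alox5, to which the membrane protein encoded by Alox5ap presents arachidonic acid, and leukotriene B is a strong attractant of neutrophils.

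The array medians lay between 5.73 and 5.83 (log2 signal). Each of 15 measured colon epithelial markers had a mean of at least 8.19, the value of Cdx2, so the defining markers of the labelled tissue were present. Trim58 itself read 4.91, 5.37, 4.82 and 5.11 in KO and 5.22, 5.07, 5.18 and 5.03 in WT, and its probe set did not separate the genotypes (limma, Benjamini-Hochberg adjusted p = 0.839), so it does not check the labels. The list of 15 pancreatic acinar enzyme genes averaged 10.38, 11.21 and 10.96 in KO replicates 1, 2 and 4, against 5.98 in KO replicate 3 and 6.09 to 6.23 in WT. KO replicates 1, 2 and 4 stood apart in this way, so the members that differed are also given for KO replicate 3 by itself. The labels name no batch, and the mouse numbers in the sample titles are all lower in WT than in KO.

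Of the 9 measured members, 2 rose in the knockout and 0 fell at a Benjamini-Hochberg adjusted p under 0.05, taken over all 22180 genes. They were Ptgs2 and Acsl4. Over all genes 0.577% passed this threshold, 0.392% upwards and 0.185% downwards. In Ptgs2, Acsl4 and Alox5ap every KO value lay above every WT value, while 3.79% of all genes were separated upwards in this way, 5.02% downwards and 8.81% in either direction. The members' median log2 difference was 0.094, against -0.014 over all genes, with 5 members above 0 and 4 below. The cyclooxygenase, the fatty acid ligase and the lipoxygenase-activating protein had the 3 largest differences, and the synthases and receptors had the smallest.

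**Figure D1:**
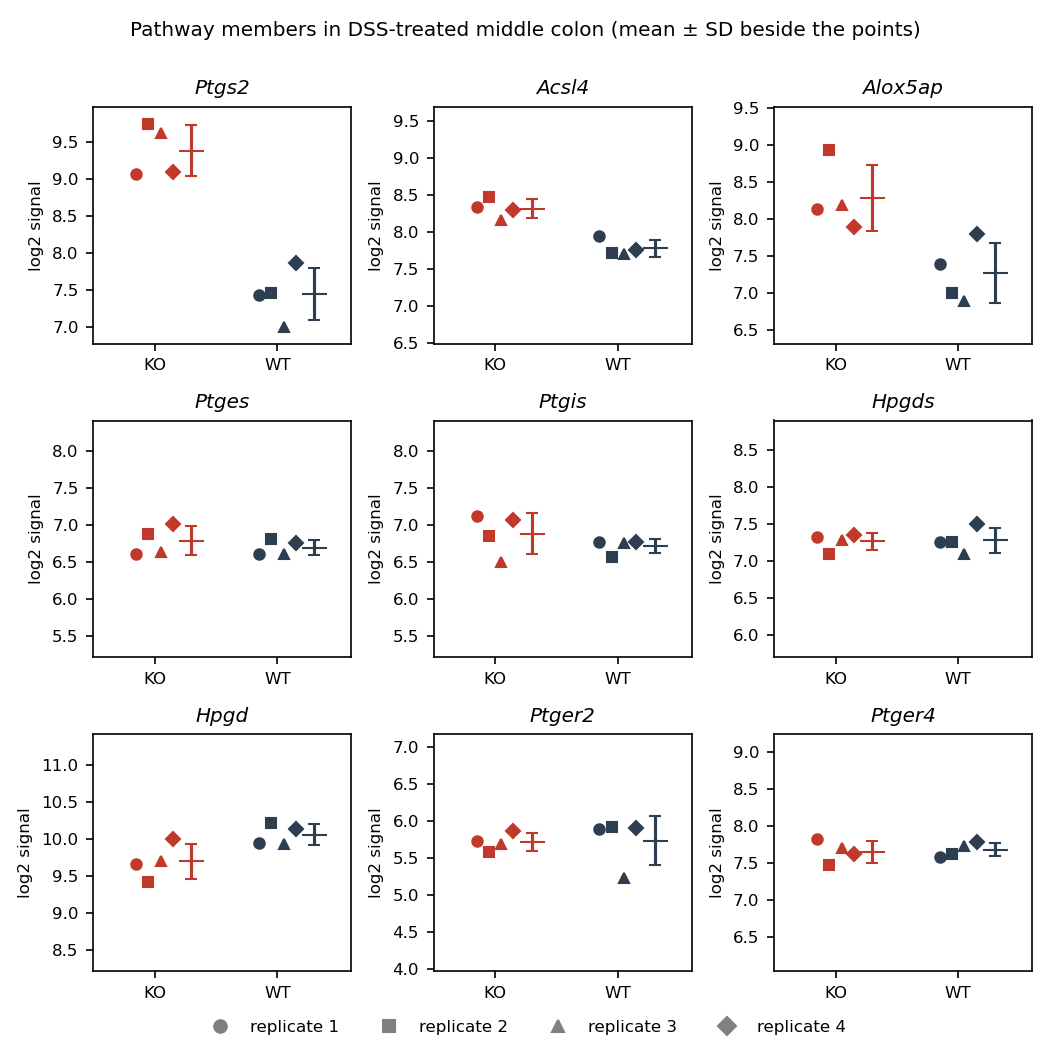
Log2 signal (vertical axis, each panel spanning the same 3.2 log2 units) of the 9 measured members in 4 KO arrays (red, left) and 4 WT arrays (dark, right). Marker shapes give the replicate number, and the bar beside the points is the mean ± SD. The genotypes do not overlap in Ptgs2, Acsl4 and Alox5ap, and they overlap in the other 6 genes.

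Ptgs2, the inducible cyclooxygenase that inflammatory signals switch on, read 9.07, 9.73, 9.62 and 9.10 in KO replicates 1 to 4, against 7.43, 7.46, 7.00 and 7.86 in WT replicates 1 to 4 (log2 signal). The lowest KO value was above the highest WT value by more than either group's SD. Ptgs2 averaged 9.38 ± 0.35 in KO and 7.44 ± 0.35 in WT (SD, n = 4 each), a 3.84-fold difference (log2 difference 1.94, 95% interval 1.50 to 2.39, adjusted p = 0.00459). The exact two-sided permutation p over the 70 assignments of arrays was 0.0286, the smallest this design allows. The rise of Ptgs2 was 2.18 in KO replicate 3, which lacked the pancreatic signal, and 1.86 as the mean of the other 3 knockouts. With KO replicate 3 alone against the 4 WT arrays the adjusted p was 0.0814, a fit that takes the lone array to vary like the WT arrays. With the pancreatic list mean as a covariate the log2 difference was 2.12, but its standard error grew and the adjusted p was 0.175.

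Acsl4, the long-chain acyl-CoA synthetase that prefers arachidonic acid, read 8.33, 8.47, 8.17 and 8.29 in KO and 7.95, 7.72, 7.70 and 7.75 in WT replicates 1 to 4. The groups were separate, with WT replicate 1 the nearest to the knockouts. Acsl4 averaged 8.32 ± 0.13 in KO and 7.78 ± 0.11 in WT, a 1.45-fold difference (log2 difference 0.53, 95% interval 0.33 to 0.74, adjusted p = 0.0358; exact permutation p = 0.0286). Its shift was 0.38 in KO replicate 3 and 0.58 as the mean of the other 3 knockouts. The Acsl4 call was close to the threshold. Among the 8 fits that leave out an array it was kept without KO replicate 3 or WT replicate 1, and it was lost without KO replicate 1, 2 or 4 (adjusted p = 0.0861, 0.118 and 0.0670) and without WT replicate 2, 3 or 4 (adjusted p = 0.145, 0.0718 and 0.0853). It was also lost with the pancreatic covariate, where the log2 difference was 0.39 (adjusted p = 0.747).

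The 250 bases before an annotated transcript start of Ptgs2 and Acsl4, the members that rose, are shown beside those of Ptges, the synthase that uses the product of Ptgs2 and did not pass the test. They are from RefSeq (build GRCm38.p6), 5′ to 3′ on the gene's strand, and 8 of the 10 members had such a window. The windows of Acsl4 and Ptges precede the start of 1 transcript and lie inside the annotated span of the gene, so other transcripts of these genes start elsewhere. Capitals mark matches on either strand to GGNNNTTCC (an NF-kB-like pattern), TTNNGNAA (a C/EBP-like pattern) and TGACG (the half-site of the cAMP response element), motifs of factors known to act on inducible cyclooxygenase genes.
Ptgs2, chr1:150099781-150100030, plus strand: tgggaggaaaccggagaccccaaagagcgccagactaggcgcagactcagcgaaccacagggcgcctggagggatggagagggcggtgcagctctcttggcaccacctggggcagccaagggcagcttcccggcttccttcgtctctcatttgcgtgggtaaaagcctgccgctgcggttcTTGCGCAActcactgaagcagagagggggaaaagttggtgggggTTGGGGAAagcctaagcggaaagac
Acsl4, chrX:142390536-142390785, minus strand: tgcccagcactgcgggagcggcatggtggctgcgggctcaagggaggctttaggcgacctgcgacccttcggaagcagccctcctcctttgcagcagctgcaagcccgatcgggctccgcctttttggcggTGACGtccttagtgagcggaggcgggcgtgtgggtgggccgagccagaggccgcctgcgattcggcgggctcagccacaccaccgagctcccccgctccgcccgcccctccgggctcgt
Ptges, chr2:30903298-30903547, minus strand: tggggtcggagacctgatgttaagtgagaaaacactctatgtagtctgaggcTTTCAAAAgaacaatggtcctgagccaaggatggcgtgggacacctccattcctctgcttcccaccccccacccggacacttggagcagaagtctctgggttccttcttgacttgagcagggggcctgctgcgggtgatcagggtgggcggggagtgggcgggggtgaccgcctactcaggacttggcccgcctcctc
The Ptgs2 window held the palindrome TTGCGCAA at 69 to 62 bases before the start, which matches the C/EBP-like pattern on both strands and was in 0.164% of 32851 windows of this length. That share is for the exact letters of the palindrome, and a string without open letters is rarer than the C/EBP-like pattern, which was in 36.8% of windows. The exact string is not among the patterns listed above and is the one this window holds. Its share therefore does not measure how unusual the Ptgs2 window is. The Ptgs2 window held another C/EBP-like match at 25 to 18 bases before the start. The Acsl4 window held 1 half-site, at 119 to 115 bases before the start, and the Ptges window 1 C/EBP-like match at 198 to 191. The C/EBP-like pattern was in the windows of 5 of the 8 members and in 36.8% of all windows, the half-site in 1 of 8 and 17.8%, and the NF-kB-like pattern in 0 of 8 and 15.7%. A match describes letters in this window only, as does the lack of one.

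Among the leukotriene genes, Alox5ap had the largest difference without passing the test. It read 8.13, 8.92, 8.19 and 7.89 in KO replicates 1 to 4 and 7.39, 6.99, 6.89 and 7.79 in WT replicates 1 to 4. KO replicate 4 and WT replicate 4 lay close together, and KO replicate 2 was the highest array. Alox5ap averaged 8.28 ± 0.45 in KO and 7.26 ± 0.41 in WT, a log2 difference of 1.02 with a 95% interval of 0.48 to 1.55 (adjusted p = 0.0951; exact permutation p = 0.0286). The difference was 0.92 in KO replicate 3 and 1.05 as the mean of the other 3 knockouts. The dimmer second probe set of Alox5ap did not show it: it averaged 5.31 ± 0.02 in KO and 5.44 ± 0.14 in WT, a log2 difference of -0.13 (exact permutation p = 0.114). With the mean of both probe sets the log2 difference was 0.44.

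The other leukotriene genes described here had smaller differences. Alox5, the lipoxygenase that Alox5ap serves, averaged 5.81 ± 0.08 in KO and 5.77 ± 0.04 in WT, and the interval of its log2 difference was -0.12 to 0.21. With the mean of the Alox5 probe sets the log2 difference was 0.17 (limma adjusted p = 0.408). Lta4h, which makes leukotriene B from the unstable intermediate, averaged 9.41 ± 0.08 in KO and 9.49 ± 0.05 in WT (adjusted p = 0.667). Ltb4r1, the high-affinity leukotriene B receptor of neutrophils, read 5.78, 5.90, 6.10 and 5.60 in KO and 5.58, 5.40, 5.51 and 5.32 in WT, groups that only just separated (log2 difference 0.39, adjusted p = 0.140). Ggt5, a transpeptidase that processes cysteinyl leukotrienes, averaged 6.37 ± 0.06 in KO and 5.97 ± 0.13 in WT with no overlap (adjusted p = 0.0739). Dpep2, the dipeptidase of the next step, had a log2 difference of 0.29 (adjusted p = 0.255). Of 10 measured genes of leukotriene synthesis and breakdown and 4 leukotriene receptor genes, 0 passed the adjusted limma test, against 3 higher and 2 lower at an unadjusted p under 0.05. Over all genes the unadjusted shares were 6.22% higher and 8.1% lower.

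The terminal prostaglandin synthases did not pass. Ptges, which makes prostaglandin E and is often induced together with Ptgs2, read 6.61, 6.88, 6.63 and 7.02 in KO and 6.61, 6.80, 6.60 and 6.75 in WT. These ranges overlapped, although KO replicates 2 and 4 lay above every WT value. The interval of the log2 difference was -0.14 to 0.33 (adjusted p = 0.757), below the whole interval of Ptgs2. Ptgis, the prostacyclin synthase of vessel walls and stroma, read 7.12, 6.85, 6.51 and 7.07 in KO and 6.78, 6.57, 6.76 and 6.77 in WT (log2 difference 0.17, interval -0.12 to 0.46, adjusted p = 0.625). KO replicate 3 was the lowest of all arrays for Ptgis, at -0.21 from the WT mean, while the other 3 knockouts lay 0.29 above it on average. The endothelial list mean was also lowest among the knockouts in KO replicate 3. It was 7.16 there, 7.42 to 7.49 in the other knockouts and 6.99 to 7.32 in WT. Within WT the list was lowest in replicate 3, where Ptgis read 6.76. Ptgis was lowest in WT replicate 2, where the list mean was 7.26. With the pancreatic covariate the log2 difference of Ptgis was -0.17 (limma adjusted p = 0.976). The part of the endothelial signal in the Ptgis values was not tested.

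Hpgds, the prostaglandin D synthase of mast cells, tuft cells and some T cells, read 7.32, 7.10, 7.29 and 7.36 in KO and 7.26, 7.26, 7.10 and 7.51 in WT. Its log2 difference was -0.012 with an interval of -0.24 to 0.21 (adjusted p = 0.974). None of 15 measured mast cell and eosinophil markers and none of 15 tuft cell markers passed the limma test, with 1 higher and 1 lower and with 2 higher and 1 lower at an unadjusted p under 0.05. Of all genes, 6.22% were higher and 8.1% lower at this unadjusted threshold. The tuft cell list mean was 5.47 to 5.48 in KO and 5.41 to 5.66 in WT. Its marker Il17rb had the smallest p of that list, with a log2 difference of -0.33 (adjusted p = 0.125).

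Hpgd, the dehydrogenase that starts prostaglandin breakdown and that colon epithelium expresses, was the member with the largest difference below 0. It read 9.66, 9.41, 9.70 and 9.99 in KO and 9.95, 10.22, 9.92 and 10.13 in WT. KO replicate 4 lay within the WT range and the other 3 knockouts below it. Hpgd averaged 9.69 ± 0.24 in KO and 10.05 ± 0.14 in WT, a log2 difference of -0.36 with an interval of -0.64 to -0.09, and it missed the threshold (adjusted p = 0.209; exact permutation p = 0.0857). The colon epithelial list mean was 11.19 to 11.39 in KO and 11.44 to 11.61 in WT, without overlap, and its summed linear signal was 53203 to 59639 in KO and 61202 to 67167 in WT. Of its 15 measured markers 1 fell, the carbonic anhydrase gene Car4 (log2 difference -0.84, adjusted p = 0.0401), and 0 rose. Car4 kept its call in 1 of the 8 fits without 1 array, the one without KO replicate 3, and its log2 difference was -0.41 with the pancreatic covariate (adjusted p = 0.759) and -0.38 with KO replicate 3 alone. The part of the epithelial signal in the Hpgd difference was not tested. Reductases of prostaglandin metabolism lay on both sides of 0 without passing. Cbr1, which converts prostaglandin E to F, averaged 10.12 ± 0.12 in KO and 10.48 ± 0.15 in WT (adjusted p = 0.125), and Ptgr2 had a log2 difference of -0.27 (adjusted p = 0.334), while Ptgr1 was at 0.019 and Akr1c18 at 0.14 on the same scale. Slco2a1, the transporter that brings prostaglandins into cells for breakdown, differed by -0.040 on the log2 scale, with an interval of -0.29 to 0.21.

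The receptors for prostaglandin E showed little difference. Ptger2 read 5.73, 5.58, 5.69 and 5.87 in KO and 5.89, 5.92, 5.24 and 5.91 in WT, where WT replicate 3 was low. Its log2 difference was -0.020 with an interval of -0.35 to 0.31. Ptger4, the main prostaglandin E receptor of colon epithelium in mouse, read 7.81, 7.46, 7.70 and 7.61 in KO and 7.58, 7.62, 7.72 and 7.78 in WT (log2 difference -0.027, interval -0.23 to 0.18, adjusted p = 0.933). The Ptger2 interval nearly reaches the size of the Hpgd difference, while the Ptger4 interval is narrower. Of 5 other prostanoid receptor genes 0 passed, with 0 at an unadjusted p under 0.05 and log2 differences from -0.083 to 0.12.

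Pairs of members with related roles were set against each other within each array. Alox5ap minus Hpgds, the pair of the leukotriene and the prostaglandin D branch, was 1.03 higher in KO than in WT on the log2 scale, with an exact permutation p of 0.0286, or 0.0857 adjusted over the 3 pairs computed. Hpgds differed by only -0.012, so this is nearly the Alox5ap difference of 1.02 given again. It uses the brighter Alox5ap probe set, and the second differed by -0.13. Ptges minus Ptgis differed by -0.073 and Ptger4 minus Ptger2 by -0.0063, with adjusted exact permutation p of 1 each. The pair of Ptgs2 and Ptgs1 was not analysed here.

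**Figure D2:**
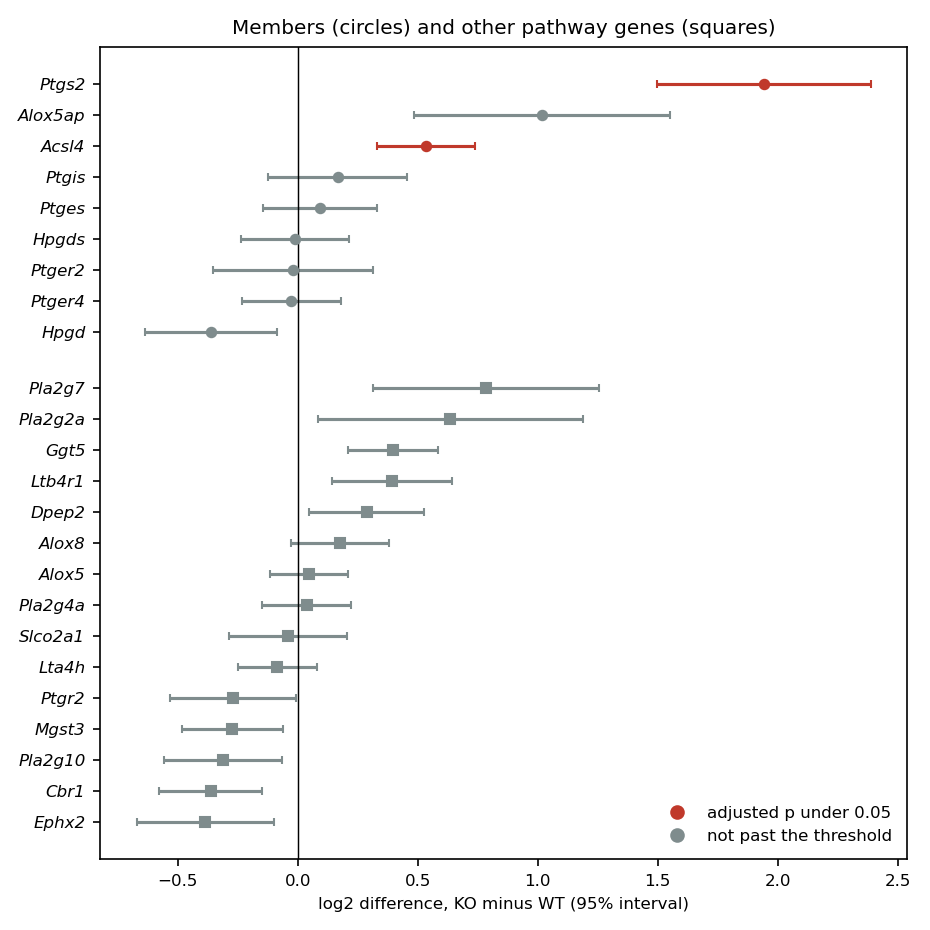
Log2 difference, KO minus WT, with its 95% interval from limma (horizontal axis) for the 9 members (circles) and 15 other pathway genes (squares). Red marks an adjusted p under 0.05, which Ptgs2 and Acsl4 reached, and Pla2g1b, at 3.42, is left off to keep the scale.

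Upstream of the cyclooxygenases the phospholipases were mixed. Of 53 measured genes on the wider pathway list 0 passed the adjusted limma test, against 6 higher and 5 lower at an unadjusted p under 0.05. Of all genes 6.22% were higher and 8.1% lower at that unadjusted threshold, 14.3% in all. The median log2 difference of the 53 genes was 0.019. Pla2g4a, the cytosolic phospholipase that frees arachidonic acid for both branches, averaged 9.46 ± 0.12 in KO and 9.42 ± 0.08 in WT, with an interval of -0.15 to 0.22. Pla2g7, which inactivates platelet-activating factor, read 7.69, 8.42, 7.95 and 7.93 in KO and 7.45, 7.18, 6.62 and 7.60 in WT (log2 difference 0.79, adjusted p = 0.125). Pla2g2a, a secreted phospholipase whose gene is disrupted in C57BL/6 mice, had a log2 difference of 0.64 and Pla2g10, a secreted phospholipase of colon epithelium, one of -0.31 (adjusted p = 0.277 and 0.223).

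Pla2g1b, the phospholipase that the pancreas secretes for digestion, read 7.72, 9.65, 4.44 and 9.20 in KO replicates 1 to 4 and 4.36, 4.12, 4.30 and 4.57 in WT. Only the 3 knockouts with the pancreatic acinar signal were high, and KO replicate 3 lay in the WT range. The adjusted p was 0.123 with all arrays and 0.000330 without KO replicate 3, and with the pancreatic covariate the log2 difference was 0.18.

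Of the remaining genes singled out by their p, Ephx2, a hydrolase of fatty acid epoxides, and Mgst3, a microsomal glutathione transferase, had every KO value below every WT value, with log2 differences of -0.39 and -0.27 (adjusted p = 0.197 and 0.213). Alox8, a mouse lipoxygenase, had a log2 difference of 0.18 (adjusted p = 0.426). Of 7 other prostanoid synthase genes, 6 genes of export, uptake and breakdown and 6 other lipoxygenase genes, 0 passed.

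Ptgs2, Alox5ap and Acsl4 were highest in KO replicate 2, as were the neutrophil list mean and the monocyte and macrophage list mean. The neutrophil list mean was 7.01, 7.70, 7.39 and 6.96 in KO replicates 1 to 4 and 5.81, 5.50, 5.39 and 5.73 in WT replicates 1 to 4. Within KO, Ptgs2 was likewise higher in replicates 2 and 3 than in replicates 1 and 4, and Alox5ap was highest in replicate 2 and lowest in replicate 4. Within WT the order differed: the neutrophil list and Acsl4 were highest in replicate 1. Ptgs2 (7.86) and Alox5ap (7.79) were highest in WT replicate 4, as was the monocyte and macrophage list mean (8.63). Of 17 measured neutrophil markers, 12 rose and 0 fell, and their summed linear signal was 3087 to 5166 in KO and 1515 to 2216 in WT. S100a9, a subunit of calprotectin, had the smallest p among them (log2 difference 3.11, adjusted p = 0.000233). The count of neutrophil markers called lay between 7 and 12 over the fits without 1 array. With the pancreatic covariate, under which 2 of all 22180 genes were called, the neutrophil markers Il1r2 and Clec4d were not (limma adjusted p = 0.269 and 0.622). S100a9 kept its call in 16 of 16 alternatives. Of 15 monocyte and macrophage markers 2 rose and 0 fell, with a list mean of 8.26 to 8.70 in KO and 7.64 to 8.63 in WT. The scavenger receptor gene Msr1 had the smallest p of these (log2 difference 1.05, adjusted p = 0.0186), and its call was lost without KO replicate 2 or WT replicate 2. Among the 8 alternatives that used all arrays Msr1 kept its call in 6, and its limma adjusted p reached 0.588. The count of monocyte and macrophage markers that rose lay between 0 and 2 over the fits without 1 array. WT replicate 3 was the lowest array for both lists and for the fibroblast (9.12) and endothelial (6.99) list means. It was also the lowest for Ptgs2, Ptges, Ptger2, Alox5ap and Acsl4. Of 12 fibroblast markers, cells that can also make Ptgs2, 1 rose, Col1a2 (log2 difference 0.64, adjusted p = 0.0396). The fibroblast list mean was 9.54 in KO replicate 3 and 9.79 to 9.92 in the other knockouts. In WT it was 9.12 to 9.56, a range that holds KO replicate 3. Col1a2 kept its call in 2 of the 8 fits without 1 array, those without KO replicate 3 or WT replicate 1, and its adjusted p was 0.759 with the pancreatic covariate. The count of fibroblast markers that rose was 0 to 3 over these 8 fits. None of 12 endothelial and none of 12 smooth muscle markers passed, with 4 endothelial markers higher and 6 smooth muscle markers lower at an unadjusted p under 0.05. At that threshold 6.22% of all genes were higher and 8.1% lower. The part of these cell types in the Ptgs2, Alox5ap and Acsl4 values was not tested.

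**Figure D3:**
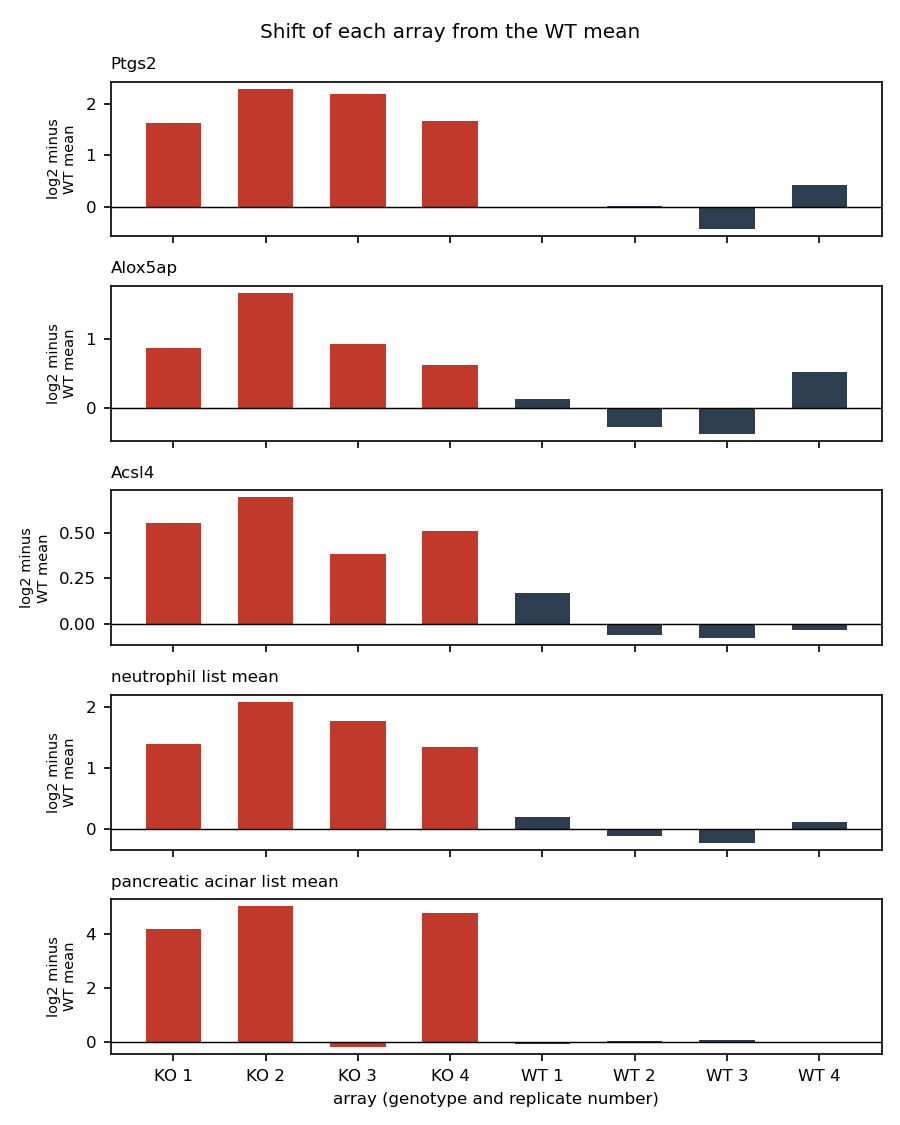
Log2 value of each array minus the WT mean (vertical axes, each on its own scale from 0) for Ptgs2, Alox5ap, Acsl4, the neutrophil list mean and the pancreatic acinar list mean, in 4 KO arrays (red) and 4 WT arrays (dark). Ptgs2 is higher in all 4 knockouts, by 1.63, 2.30, 2.18 and 1.66, while the pancreatic list is higher in KO 1, 2 and 4 only.

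The genes whose profile over the 8 arrays lay closest to Ptgs2, by root mean square distance after subtracting each gene's mean, were Hdc, Il1r2 and Clec4d, at 0.236, 0.239 and 0.272 log2 units. Hdc makes histamine, Il1r2 is the decoy receptor for interleukin-1 and Clec4d is a C-type lectin receptor of myeloid cells. Their log2 differences were 1.78, 1.61 and 1.92 (adjusted p = 0.00459, 0.0121 and 0.0202). Closest to Acsl4 were the membrane-bound protease gene Mmp14, the ribonucleotide reductase gene Rrm2 and the semaphorin gene Sema7a, at 0.0581, 0.0600 and 0.0671 log2 units, with log2 differences of 0.47, 0.46 and 0.60. Rrm2 did not pass the test (adjusted p = 0.0639). Over the 8 fits without 1 array Hdc kept its call in 8, Il1r2 in 7, Clec4d in 5, and Mmp14 and Sema7a in 2 each. The distance is a description over 8 arrays in which the genotype difference is the largest part.

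**Figure D4:**
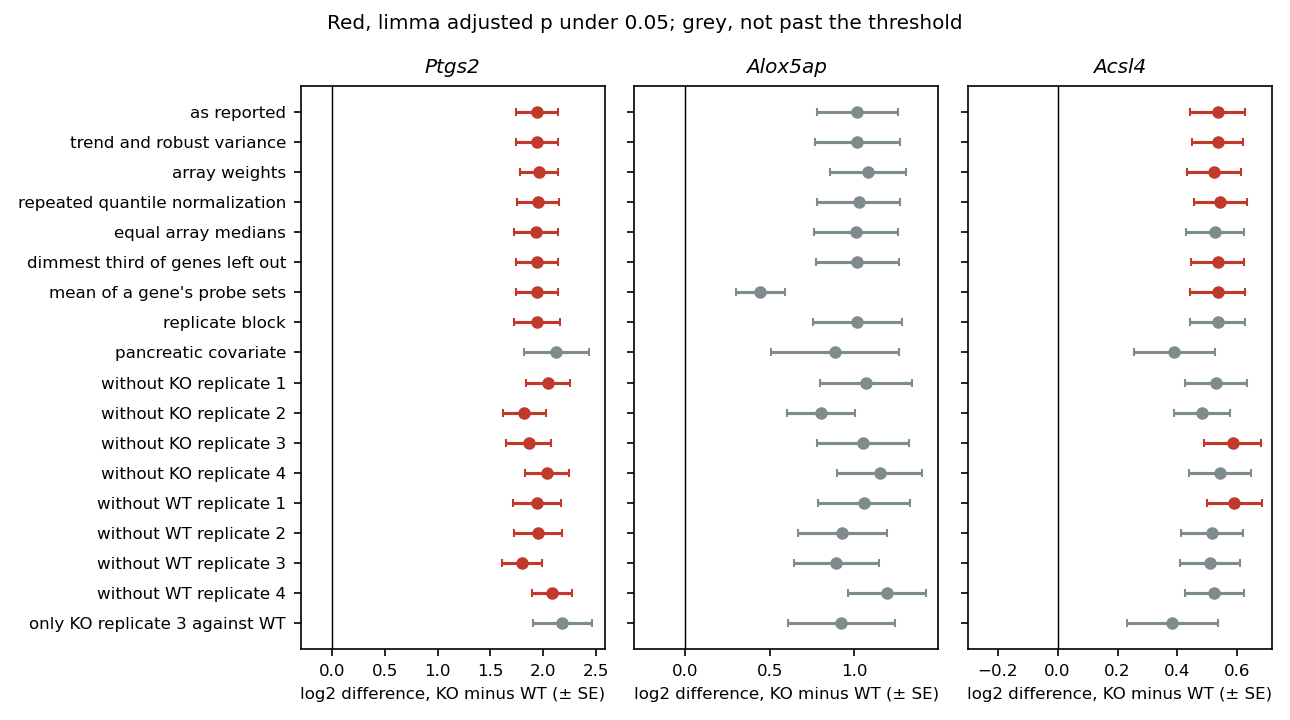
Log2 difference, KO minus WT, ± SE (horizontal axis) of Ptgs2, Alox5ap and Acsl4 as reported and under each alternative (rows). Red marks a limma adjusted p under 0.05. Leaving aside the lowest row, Ptgs2 passed in 15 of 16 alternatives, Acsl4 in 7 of 16 and Alox5ap in 0 of 16.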

How the data were processed

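Total RNA (200 ng) from each mouse was amplified, labelled with biotin and hybridised to 1 Affymetrix whole-transcript array, per the labels' protocols. The authors deposited log2 values made by RMA in Affymetrix Expression Console 1.4, per the submitters' processing notes. RMA corrects background, gives the arrays a common distribution and understates differences of dim or very bright probe sets. Arrays hold no sequencing depth, and their number limits the precision.

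Of 41345 probe sets, 23521 were annotated with 1 gene, 1814 with several and 16010 with none. For each of 22180 genes the probe set with the highest mean was used, with no filter. KO was set against WT with limma 3.58.1 (R 4.3.3, no covariate, threshold 0.05 after Benjamini-Hochberg adjustment over all genes). Each member also had an exact two-sided permutation test (70 assignments). The members, gene lists and tests were chosen with earlier results of these data known. Named genes were all members, the 12 other pathway genes with the smallest p (Ltb4r1 and Pla2g1b among them), Alox5, Lta4h, Pla2g4a and Slco2a1, the 3 closest profiles of each called member, the marker with the smallest p in each list, and Trim58.

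Alternatives were a variance trend with robust estimates, weighting of arrays, quantile normalization applied again, arrays set to equal medians, no dim genes, averaging over probe sets of a gene, the replicate number as a block, a pancreatic covariate and leaving out each array. The fit with KO replicate 3 alone was chosen after seeing the data. The scripts were tested on simulated data. The replicate numbers name separate mice, and same-numbered arrays did not deviate together.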

Additional observations from a re-analysis of the deposited data

Results flagged for a closer look

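Single arrays stood apart from the other 3 of their genotype, by a gap that Dixon's test reaches by chance in about 1 of 20 groups, in 6 of 88 groups of 4 values examined. Ptger2 was 5.24 in WT replicate 3, against 5.89 to 5.92 in the other WT arrays. Ptgis was 6.57 in WT replicate 2, against 6.76 to 6.78 in the others. Ephx2 was 6.48 in KO replicate 2, where the other knockouts were at 6.92 to 6.98. Clec4d was 7.87 and Sema7a 7.89 in KO replicate 2, against 6.98 to 7.08 and 7.58 to 7.63 in the other knockouts. Car4 was 11.18 in KO replicate 3, against 10.54 to 10.58 in the other knockouts, which carried the pancreatic acinar signal.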

How the results depend on the processing

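Ptgs2 kept its direction in every fit and its call in 15 of 16 alternatives, with log2 differences of 1.80 to 2.12, and lost the call with the pancreatic covariate and with KO replicate 3 alone, which is not among the 16. The count of members called was 1 with equal array medians, 1 with the replicate block, 0 with the pancreatic covariate, 0 with KO replicate 3 alone, and 1 to 2 over the fits without 1 array. Acsl4 was the call lost in those fits with 1 call. The adjusted p of Acsl4 was 0.0507 with equal medians and 0.0865 with the replicate block. The count of other pathway genes called was 1 without the dimmest 33.3% of genes (Ggt5), and 0 to 1 over the fits without 1 array, where Pla2g1b passed without KO replicate 3. Over all genes 128 were called. This was 199 with array weights, 203 without the dimmest 33.3%, 64 with the replicate block, 2 with the pancreatic covariate, 14 with KO replicate 3 alone and 25 to 252 without 1 array. Same-numbered arrays correlated at -0.16 to 0.052 in their deviations from the group means. These correlations gave no sign that the number pairs mice, but they cannot exclude it.

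Signs turned only for differences that had not passed. With the pancreatic covariate Ptges was -0.077, Ptgis -0.17, Hpgds 0.027, Ptger4 0.050 and Slco2a1 0.080, and with KO replicate 3 alone they were -0.060, -0.21, 0.012, 0.028 and 0.11. With array weights Hpgds was 0.012 and Ptger4 0.0021. Ptger4 minus Ptger2 was 0.0017 after repeated quantile normalization. Without 1 array, Hpgds ranged from -0.073 to 0.063, Ptger2 from -0.19 to 0.039, Ptger4 from -0.082 to 0.035, Pla2g4a from -0.0032 to 0.087, Slco2a1 from -0.12 to 0.028, Trim58 from -0.18 to 0.0029, Ptges minus Ptgis from -0.15 to 0.064 and Ptger4 minus Ptger2 from -0.088 to 0.18. The causes were not tested.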
